A study of Mus musculus with 6 samples.

Results

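Chondroitin sulfate proteoglycan, hyaluronan synthase and biglycan genes were followed in mouse neurospheres, balls of cells that neural progenitors form when grown unattached. The 10 genes were taken by name as a list of brain matrix genes and comprised the lecticans Vcan, Acan, Bcan and Ncan, the membrane proteoglycans Cspg4, Cspg5 and Ptprz1, the hyaluronan synthases Has2 and Has3, and Bgn. All 10 were found among the 17551 genes of the deposited count table, and all 10 passed the filter on low counts that left 14643 genes for testing. The 3 G328V libraries (replicates 1, 2 and 3; genotype ACVR1 G328V) carry NPAC in their titles, and the 3 WT libraries (replicates 1, 3 and 70A; genotype ACVR1 WT) belong to the group called NP. In this order their values are given throughout. Both groups shared the C57BL/6 background and a medium that held N2, B27, EGF and FGF. How the allele was introduced, the age of the animals and the meaning of NPAC and NP are stated in none of the sources used. G328V is a glycine-to-valine change in the BMP type I receptor ACVR1. The comparison asked which genes differ between the genotypes, and here what these matrix genes did.

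The extracellular matrix of the brain is built on hyaluronan, a long unsulfated sugar chain that hyaluronan synthases extrude through the plasma membrane. Lecticans bind hyaluronan with one end and tenascins with the other, link proteins steady the first of these contacts, and the chondroitin sulfate chains on their core proteins shape growth and migration of neural cells. Versican (Vcan) is made in many embryonic tissues, aggrecan (Acan) is the main proteoglycan of cartilage and part of the nets around neurons, and brevican (Bcan) and neurocan (Ncan) are largely restricted to the nervous system.

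Library totals ranged from 115953495 to 191115532 counts. The neural stem factor Sox2 was present in all 6 libraries, at 134 to 237 CPM (counts scaled to library size, with TMM factors), while Hes5, another marker of these cells, was at 0.244 CPM or less. Acvr1 itself measured 244, 250.1 and 650.1 CPM with G328V against 42.4, 100 and 90.7 CPM with WT. Xist, the RNA of the inactive X chromosome, spanned 443 to 795 CPM with G328V against 0.25 to 1.18 CPM with WT, so the groups also differ in this marker of sex and genotype cannot be told apart from it. WT replicate 1 stood apart from the other WT libraries in the oligodendrocyte lineage factors Olig1 and Olig2, at 615 and 416 CPM against at most 0.144 CPM in the other 2, and the differences of the members that rest on it are given with and without it.

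The promoters of Ncan, Bcan and Vcan are shown because these 3 genes carry the pattern described next, in which Ncan and Bcan were high in the same libraries and Vcan was low there. The sequences are from RefSeq on build GRCm38.p6 and run 5′ to 3′ on the gene's strand from 250 bases before the start of the gene to 50 bases after it, as RefSeq places that start. Capitals mark matches to the motifs searched on both strands, which were GGCGCC (the core of a GC-rich BMP-SMAD element), CAGCTG (an E-box), ACAATG (a SOX-type motif), TATAAA (an element of core promoters) and the AP-1 motif TGANTCA.
Ncan, chr8:70120795-70121094, minus strand: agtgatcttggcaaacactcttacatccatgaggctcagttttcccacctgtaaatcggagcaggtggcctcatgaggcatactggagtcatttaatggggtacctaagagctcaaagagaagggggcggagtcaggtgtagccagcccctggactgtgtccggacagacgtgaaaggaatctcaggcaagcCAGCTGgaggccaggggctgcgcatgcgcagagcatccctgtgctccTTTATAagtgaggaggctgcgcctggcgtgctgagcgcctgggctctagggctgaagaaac
Bcan, chr3:88000307-88000606, minus strand: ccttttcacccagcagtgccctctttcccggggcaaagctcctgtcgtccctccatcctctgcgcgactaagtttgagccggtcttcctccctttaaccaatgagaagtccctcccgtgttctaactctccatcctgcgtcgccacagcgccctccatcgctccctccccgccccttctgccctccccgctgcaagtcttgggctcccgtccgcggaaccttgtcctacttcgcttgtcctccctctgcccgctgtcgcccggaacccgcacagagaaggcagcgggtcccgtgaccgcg
Vcan, chr13:89742463-89742762, minus strand: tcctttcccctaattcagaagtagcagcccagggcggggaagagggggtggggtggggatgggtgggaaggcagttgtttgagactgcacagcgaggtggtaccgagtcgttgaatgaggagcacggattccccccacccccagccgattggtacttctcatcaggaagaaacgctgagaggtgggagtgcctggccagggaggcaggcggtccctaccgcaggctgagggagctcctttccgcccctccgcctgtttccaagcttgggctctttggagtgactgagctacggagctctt

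On build GRCm38 the annotated genes span 70093085 to 70120873 on chromosome 8 (Ncan), 87987531 to 88000230 on chromosome 3 (Bcan) and 89655312 to 89742509 on chromosome 13 (Vcan), each on the minus strand, in GENCODE M21. The RefSeq start lay 126 bases upstream of the GENCODE start for Bcan, so that its window lies outside the GENCODE gene, and 3 bases upstream for Vcan, while that of Ncan lay within the GENCODE gene. The Ncan window held 1 CAGCTG match, beginning 58 bases before the start, and 1 TATAAA match on the opposite strand, beginning 11 bases before the start. The Bcan and Vcan windows held no match to the 5 motifs. Among the 7 members with an entry in the table, CAGCTG also occurred in the windows of Acan and Bgn, and GGCGCC in that of Cspg4, and no 2 of the motif matches overlapped. Of 32851 promoters of the same length, 16.3% held CAGCTG, 11.9% held GGCGCC, 13.6% held TATAAA, 12.6% held ACAATG and 7.81% held TGANTCA. The Bcan window was 64% GC with 24 CpG, the Vcan window 61% GC with 12 CpG and the Ncan window 56.7% GC with 9 CpG. The median was 52.7% GC and 7 CpG. Any relation of base composition to the levels was not tested.

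Within both genotypes, the most abundant lectican differed from library to library. Ncan measured 233, 233 and 0.125 CPM with G328V against 1428, 1.06 and 0.391 CPM with WT. Bcan measured 44.8, 33.5 and 0.00544 CPM with G328V against 128, 0.0114 and 0.0345 CPM with WT. Both brain-restricted lecticans were thus high in G328V replicates 1 and 2 and in WT replicate 1, and Bcan had 1, 2 and 6 counts in the remaining 3 libraries. Between the third and the fourth library in order of level lay a step of 219-fold for Ncan and 972-fold for Bcan.

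Vcan ran the other way. It measured 116, 32.4 and 582 CPM with G328V against 123, 471 and 551 CPM with WT. The libraries with the most Vcan, G328V replicate 3 and WT replicates 3 and 70A, were those with almost no Ncan or Bcan, and Vcan was still present in every library, its highest level being 18-fold its lowest. Acan was sparse, at 0.35, 0 and 16.3 CPM with G328V against 0.00813, 3.31 and 0.661 CPM with WT, and its 3 highest libraries were the same as those of Vcan. The third of them exceeded the fourth by only 1.89-fold, and G328V replicate 3 was far above the rest. The 0 counts of Acan in G328V replicate 2 were set to 3 counts, or 0.0249 CPM. On that floor the highest library held 652-fold more than this one. Counts are not independent molecules, so this fold is not a lower bound.

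**Figure D1:**
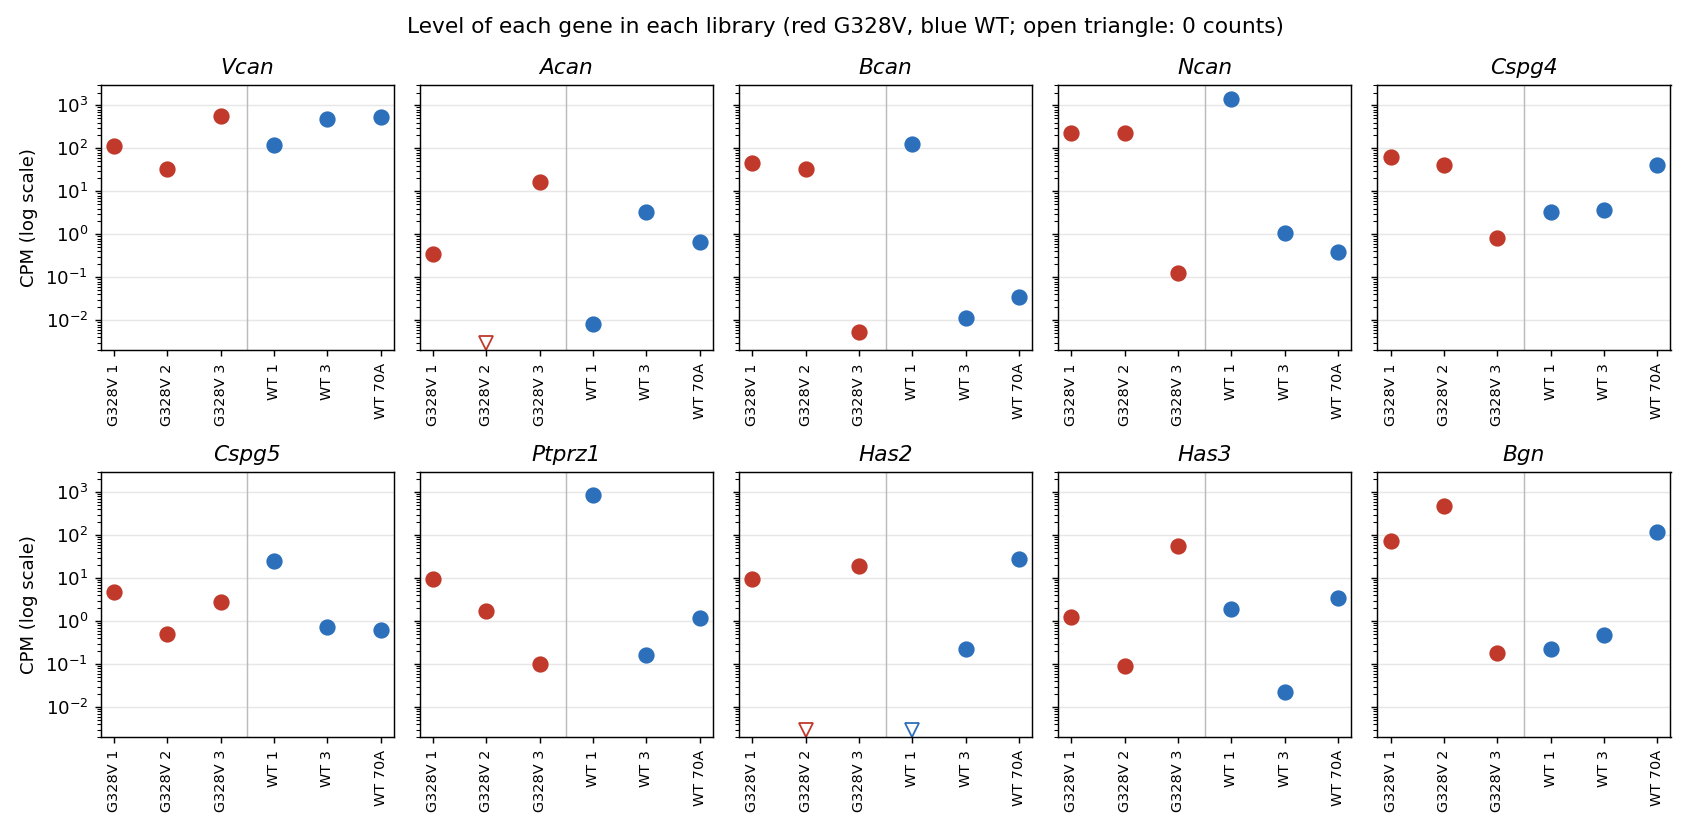
Level of each of the 10 genes in CPM on a log axis, 1 point per library, with G328V in red, WT in blue and libraries with 0 counts as open triangles at the lower edge. Ncan and Bcan are high in G328V 1, G328V 2 and WT 1, where Vcan is lowest, and no gene separates red from blue.

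Levels were divided by the summed exon length of each gene in GENCODE M21 to give RPKM (CPM per kilobase of exon), on which genes can be compared. Ncan and Bcan together made up 84.3% and 94.8% of the summed lectican RPKM in G328V replicates 1 and 2 and 96.4% in WT replicate 1, but 0.0442% in G328V replicate 3 and 0.454% and 0.164% in WT replicates 3 and 70A. Vcan supplied 94.8%, 98.2% and 99.6% in these last 3 libraries, and Acan 5.13% in G328V replicate 3. The summed lectican RPKM was 33.2 to 51.4 in 5 libraries and stood at 238 in WT replicate 1. Where both were well counted, Ncan exceeded Bcan by 2.94-fold and 3.93-fold in RPKM in G328V replicates 1 and 2 and by 6.29-fold in WT replicate 1.

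**Figure D2:**
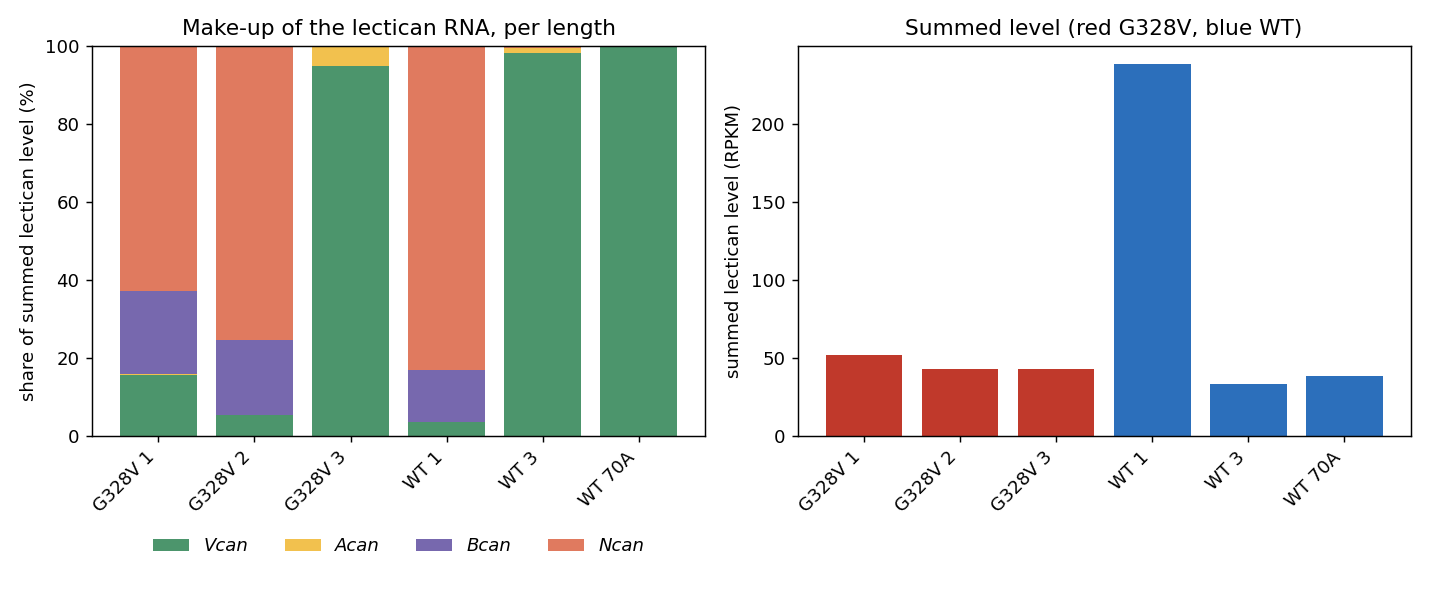
Left, share of each lectican in the summed lectican RPKM of a library, in percent; right, the summed RPKM, with G328V in red and WT in blue. Ncan and Bcan make up most of the sum in G328V 1, G328V 2 and WT 1 and Vcan in the others, and the sum is highest in WT 1, at 238 RPKM.

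For each lectican the groups overlapped. Mean CPM of Vcan was 243 ± 296 (SD, n = 3) with G328V against 382 ± 228 with WT, and that of Ncan 155 ± 134 against 476 ± 824. The log2 differences of Vcan, Acan, Bcan and Ncan (G328V minus WT) were -0.65 ± 1.07, 2.06 ± 2.69, -0.71 ± 3.07 and -1.62 ± 2.95 (SE), and edgeR's quasi-likelihood test gave an adjusted p of 0.997 for each. Without WT replicate 1 the difference of Ncan turned to 7.72 and that of Bcan to 10.09, the latter against 2 and 6 counts in the WT libraries left, with edgeR adjusted p-values of 0.721 and 0.699. Without G328V replicate 3 the difference of Acan turned to -2.91 and that of Vcan was -2.37.

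Of the membrane proteoglycans, Ptprz1 and Cspg5 were highest in WT replicate 1 and Cspg4 in G328V replicate 1. Ptprz1 encodes a receptor tyrosine phosphatase whose secreted form is phosphacan. It measured 9.71, 1.7 and 0.103 CPM with G328V against 881, 0.159 and 1.16 CPM with WT. WT replicate 1 alone was high. The log2 difference of -6.26 ± 3.30 (SE; adjusted p = 0.997 by edgeR) was the largest of the 10 genes in size and turned to 2.53 without that library. Cspg5, which encodes neuroglycan C, measured 4.72, 0.49 and 2.86 CPM with G328V against 25.2, 0.744 and 0.626 CPM with WT. It too was highest in WT replicate 1, and its difference of -1.72 ± 1.64 (SE) turned to 1.97 without it.

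Cspg4 encodes NG2, a proteoglycan of oligodendrocyte precursors and pericytes. It measured 61.9, 42.2 and 0.81 CPM with G328V against 3.27, 3.67 and 40.7 CPM with WT. High levels were found in G328V replicates 1 and 2 and in WT replicate 70A, and the library rich in Olig1 and Olig2 was not among them. Pdgfra, another precursor marker, was highest in these same 3 libraries, at 102, 158 and 64.2 CPM, against 9.65 to 46.3 CPM elsewhere. This trio was highest for 3.67% of all genes tested. The other tested precursor markers were highest in other trios, each with WT replicate 1. The log2 difference, 1.14 ± 1.55 (SE), reached 3.33 without WT replicate 70A and 0.44 without G328V replicate 1. Cspg4 was the one member whose difference kept its sign under all 15 alternative settings, and it passed the FDR threshold under none of them.

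Bgn encodes biglycan, a small leucine-rich proteoglycan that binds collagen fibrils, and lies on the X chromosome. It measured 74.2, 474 and 0.179 CPM with G328V against 0.228, 0.472 and 116 CPM with WT. The same 3 libraries as for Cspg4 were high, and the third of them exceeded the fourth by 157-fold. Mean CPM of Bgn was 183 ± 255 (SD, n = 3) with G328V against 39.1 ± 67 with WT. The log2 difference of 2.23 ± 2.74 (SE) was -0.07 without G328V replicate 2 and 9.00 without WT replicate 70A. Markers of mesenchymal and mural cells, which also make biglycan and NG2, varied beside it. All 7 genes of that list were counted, their levels summed to 91.2, 123 and 314 CPM with G328V against 23.1, 26.8 and 529 CPM with WT, and single markers disagreed. Pdgfrb measured 6.22, 75.9 and 0.125 CPM with G328V against 0.138, 6.8 and 43.2 CPM with WT, highest in 2 of the libraries rich in Bgn. Rgs5, a pericyte marker, was at 299 CPM in G328V replicate 3, where Bgn was at 0.179 CPM, and never above 7.22 CPM elsewhere. Col3a1, a fibrillar collagen gene, measured 46.2, 20.2 and 0.74 CPM with G328V against 5.92, 11.2 and 455 CPM with WT. Twist1 measured 30.8, 17.1 and 13.8 CPM with G328V against 14.7, 8.17 and 23.5 CPM with WT. Both were highest in the 3 libraries rich in Bgn, a trio that was highest for 3.67% of all genes tested. The other markers of the list were highest in other trios. Col1a1 measured 0.39, 8.88 and 0.00544 CPM with G328V against 0.0488, 0.557 and 5.23 CPM with WT. Acta2 had 0 counts in 3 libraries and at most 0.146 CPM elsewhere, and Col1a2 had 0 counts in 3 libraries and at most 0.293 CPM elsewhere. In bulk RNA, more cells of a type and more RNA per cell cannot be told apart, and the part of these markers in the Bgn and Cspg4 levels was not tested.

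Of the hyaluronan synthases, Has2 ranged from no counts to clear expression within each group, while Has3 had counts in all 6 libraries. Has2 measured 9.45, 0 and 19.2 CPM with G328V against 0, 0.222 and 28.4 CPM with WT. The 0 counts in G328V replicate 2 and WT replicate 1 were set to 3 counts, or 0.0249 and 0.0244 CPM. On that floor the highest library held 1141-fold and 1167-fold more than these, and these folds are not lower bounds. Each group had a library without Has2 counts and a library with many, 3538 in G328V replicate 3 and 4951 in WT replicate 70A, and the group difference was 0.00 ± 2.86 (SE). It was 6.41 without WT replicate 70A and -1.02 without G328V replicate 3.

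Has3 measured 1.26, 0.0914 and 56.7 CPM with G328V against 1.88, 0.0227 and 3.52 CPM with WT. G328V replicate 3 alone was high, the log2 difference of 3.42 ± 2.42 (SE; adjusted p = 0.997 by edgeR) was the largest positive one among the members, and it turned to -1.42 without that library. Has3 overlaps Chtf8, on the opposite strand. The deposited Cufflinks table assigned it 455, 285 and 5525 fragments in G328V and 281, 119 and 805 in WT, that is 0.03 to 1.89 counts per fragment against a median of 1.95 to 1.96 for all genes, so the low Has3 values depend on the table. From the Cufflinks values the difference of Has3 was 2.22 ± 1.25 (SE). WT replicate 1, the richest in Ncan, had no Has2 counts, while G328V replicate 1 had both.

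**Figure D3:**
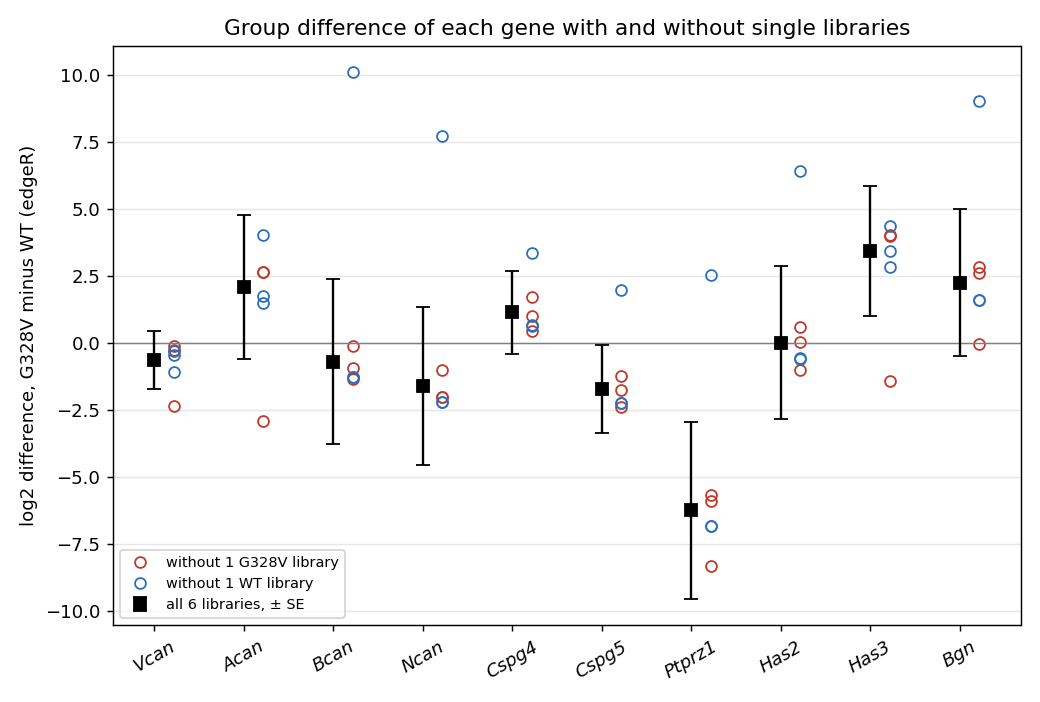
Log2 difference between the groups (G328V minus WT, edgeR) for each gene, with all 6 libraries (black squares, bars ± SE) and without 1 G328V library (red circles) or 1 WT library (blue circles). Leaving out a single library moves Bcan from -0.71 to 10.09 and Ptprz1 from -6.26 to 2.53.

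Across the 10 genes, 4 had a positive and 5 a negative difference, Has2 being at 0.00, with a median of -0.32 beside 0.00 for all genes tested. The groups overlapped in each of the 10, while 9.70% of all genes tested had groups that did not overlap (5.25% with G328V higher and 4.45% with G328V lower). None had an unadjusted edgeR p under 0.05, which 4.06% of all genes had, and edgeR called 0 of the 10 and 0 of all 14643 genes (0%) at an FDR under 0.05. DESeq2, which called 173 genes or 1.05% of those it tested, called 0 of the 6 members to which it gave a p-value, and gave none to Acan, Ncan, Ptprz1 and Has3. For limma-voom, which called 0 genes in all, and for DESeq2, 0 members had an unadjusted p under 0.05. With standard errors of 1.07 to 3.30 on the log2 scale, these libraries could not show differences of the sizes measured here, and equal expression was not shown either. The replicates are described as biological, but the animals and cultures behind them are not named, so the errors measure the spread between these libraries.

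All 10 genes spread widely between libraries of the same group. The SD of log2 CPM within G328V was 1.70 to 6.39 and within WT 1.19 to 6.89, where the medians over all genes tested were 0.56 and 0.65, and all 10 members lay above the median in both groups. The highest library exceeded the lowest by over 100-fold for 7 of the 10 and for 12.2% of all genes tested, counting libraries under 3 counts as 3. The 7 include Has3, at 2495-fold, whose low values depend on the count table used. Cufflinks gave Has3 119 to 5525 fragments, not scaled to library size. For Ncan, Bcan and Ptprz1 the 3 highest libraries were G328V replicates 1 and 2 and WT replicate 1, a trio that was highest for 9.54% of all genes tested. For Cspg4 and Bgn they were G328V replicates 1 and 2 and WT replicate 70A (3.67% of all genes), and for Vcan and Acan G328V replicate 3 and WT replicates 3 and 70A (8.07%). For Ptprz1 and Acan the third library exceeded the fourth by only 1.47-fold and 1.89-fold. Averaged over the 6 libraries, the order per length of exon ran from Ncan at 43.9 RPKM through Vcan (21.6), Bgn (18.2), Ptprz1 (10.5), Bcan (8.47), Has2 (2.26), Cspg4 (2.13), Has3 (1.66) and Cspg5 (0.573) to Acan at 0.459 RPKM, and neighbours in this order differed by less than the spread over libraries. Without WT replicate 1, a choice made after seeing the data, the order began with Vcan at 24.2 RPKM, Bgn at 21.8 RPKM and Ncan at 13 RPKM, and Ptprz1 came last at 0.18 RPKM. Because the levels of several members fell into separate clusters or were high in a single library, correlations between members were not calculated.

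The enzymes that build the chondroitin sulfate chain varied about as much over the libraries as the median gene. Of 12 such genes, all tested, the highest library exceeded the lowest by less than 4-fold in 8, with a median of 3.25-fold beside 3.53-fold for all genes tested. Chpf, a chondroitin polymerizing factor, lay at 62.6 to 86.6 CPM and Chsy1, a chondroitin synthase, at 163 to 279.9 CPM over the 6 libraries. The 4 genes that varied by more were Xylt1 at 4.89-fold, B4galt7 at 5.42-fold, Csgalnact1 at 12.2-fold and Chsy3, which lay at 0.0166 to 5.3 CPM. Between groups 5 were higher and 7 lower, with 0 called by edgeR and a median log2 difference of -0.09. B4galt7 and B3gat3, enzymes of the linker between core protein and chain, and Xylt1, which starts it, had log2 differences of -1.07 ± 0.55, -0.72 ± 0.39 and -0.90 ± 0.56 (SE). Enzymes of sulfation and epimerization varied more, with a median of 15.7-fold over 10 tested genes, of which 3 were higher, 7 lower and 0 called, at a median log2 difference of -0.83. Ust, a uronyl sulfotransferase, measured 11.1, 35.1 and 28.9 CPM with G328V against 107, 36.4 and 64.8 CPM with WT, its log2 difference was -1.47 ± 0.58 (SE), and it was not called (adjusted p = 0.997 by edgeR). Chst15 and Chst7, further sulfotransferases of the chain, had log2 differences of -2.03 ± 1.20 and -2.43 ± 1.67 (SE).

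**Figure D4:**
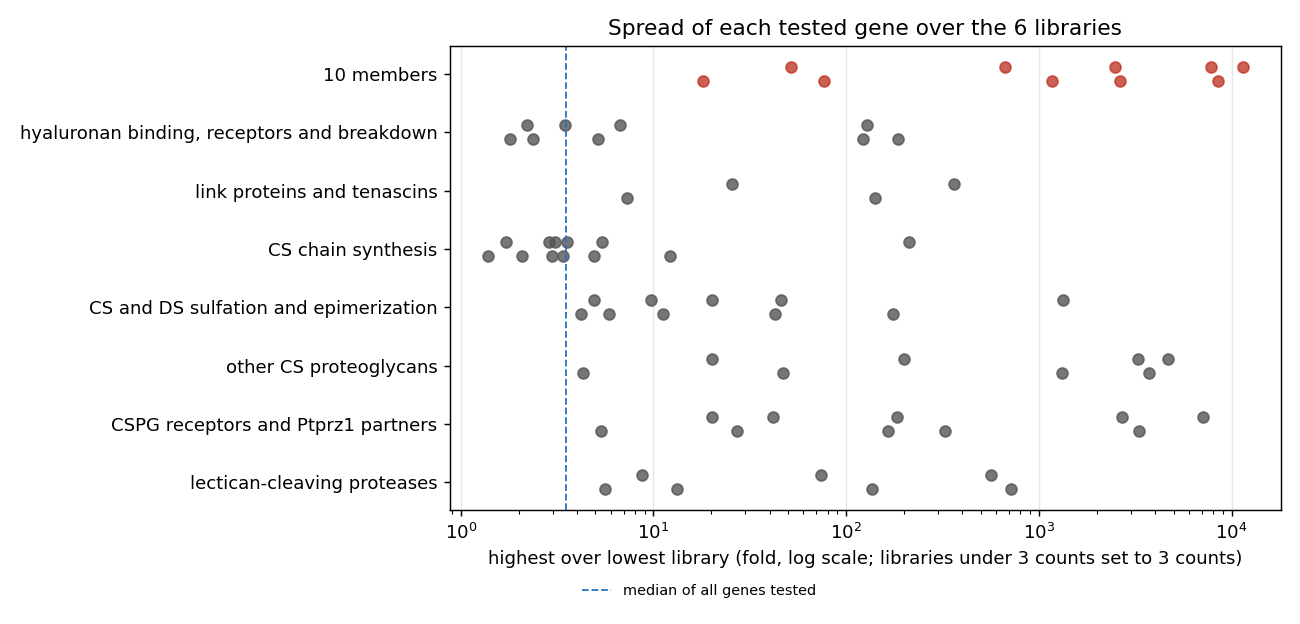
Highest over lowest library for each tested gene, as a fold on a log axis, with libraries under 3 counts set to 3 counts; the 10 members are in red, the related lists in grey, and the dashed line is the median of all genes tested, 3.53-fold. Most genes of chain synthesis lie near the line, and each member lies at 18-fold or more. The list labelled other CS proteoglycans also holds small leucine-rich relatives of biglycan.

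Partners of the lecticans were measured in the same libraries. Of 4 tested link protein and tenascin genes, 2 were higher and 2 lower, with 0 called by edgeR and a median log2 difference of -1.68. Tnc, which encodes the tenascin of stem cell niches, measured 91.8, 212 and 28.7 CPM with G328V against 4056, 61.3 and 887 CPM with WT, with a log2 difference of -3.91 ± 1.51 (SE) that was -2.13 ± 1.22 without WT replicate 1. Tnr, the tenascin that binds brevican and neurocan, measured 1.32, 21.3 and 1.61 CPM with G328V against 5.09, 0.949 and 0.839 CPM with WT, and Tnxb was lower in each G328V library, at most 0.332 CPM against 1.37 to 11.9 CPM in WT. DESeq2 alone called Tnxb (log2 difference -4.96, adjusted p = 0.00154), and edgeR gave an adjusted p of 0.997. Hapln4, a brain link protein named after its values were seen, was highest in the 3 libraries rich in Ncan and Bcan, where it measured 49.98, 17.8 and 35.8 CPM, against 6.88 to 8.95 CPM elsewhere. The same 3 libraries were highest for 9.54% of all genes tested, and Tnc, Tnr and Tnxb were each highest in other trios. Hapln1 had a level of 0.326 CPM in G328V replicate 1 and 0 counts in the other 5 libraries.

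On the hyaluronan side, 4 of 9 tested genes of binding, receptors and breakdown were higher and 5 lower, with 0 called and a median log2 difference of -0.20. This list also held Ugdh (log2 difference 0.54 ± 0.68, SE), a gene of none of these roles. These values thus do not describe such genes alone. Cd44, the main hyaluronan receptor, measured 585, 321 and 442 CPM with G328V against 247, 1268 and 781 CPM with WT, high in all 6 libraries including those without Has2 counts. Hmmr, a hyaluronan-binding protein of the mitotic spindle, spanned 148 to 192 CPM with G328V against 106 to 148 CPM with WT, with a log2 difference of 0.46 ± 0.23 (SE). Stab1, a scavenger receptor of hyaluronan, spanned 0.449 to 9.08 CPM with G328V against 0.618 to 57.5 CPM with WT.

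Receptors of chondroitin sulfate and partners of Ptprz1 comprised 10 tested genes, 6 higher and 4 lower, with 0 called and a median log2 difference of 0.56. Cntn1, a contactin that binds the Ptprz1 protein, lay at 116 CPM in WT replicate 1, where Ptprz1 was at 881 CPM, and never above 0.432 CPM elsewhere. Ptprd, a receptor phosphatase of the LAR family, was likewise at 82.3 CPM there and at most 2.59 CPM elsewhere. Ptn, which encodes the Ptprz1 ligand pleiotrophin and was named after its values were seen, measured 73.4, 29.3 and 0.0272 CPM with G328V against 73.1, 0.727 and 1.12 CPM with WT, high in the libraries with Ncan and Bcan. That trio of libraries was highest for 9.54% of all genes tested. Mdk, which encodes the related ligand midkine, measured 37.5, 86.8 and 114 CPM with G328V against 0.349, 41.2 and 21.4 CPM with WT, lowest in WT replicate 1 and highest in G328V replicate 3. Rtn4r, the Nogo receptor, spanned 1.69 to 2.87 CPM with G328V against 0.106 to 1.45 CPM with WT, with a log2 difference of 1.75 ± 1.15 (SE).

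**Figure D5:**
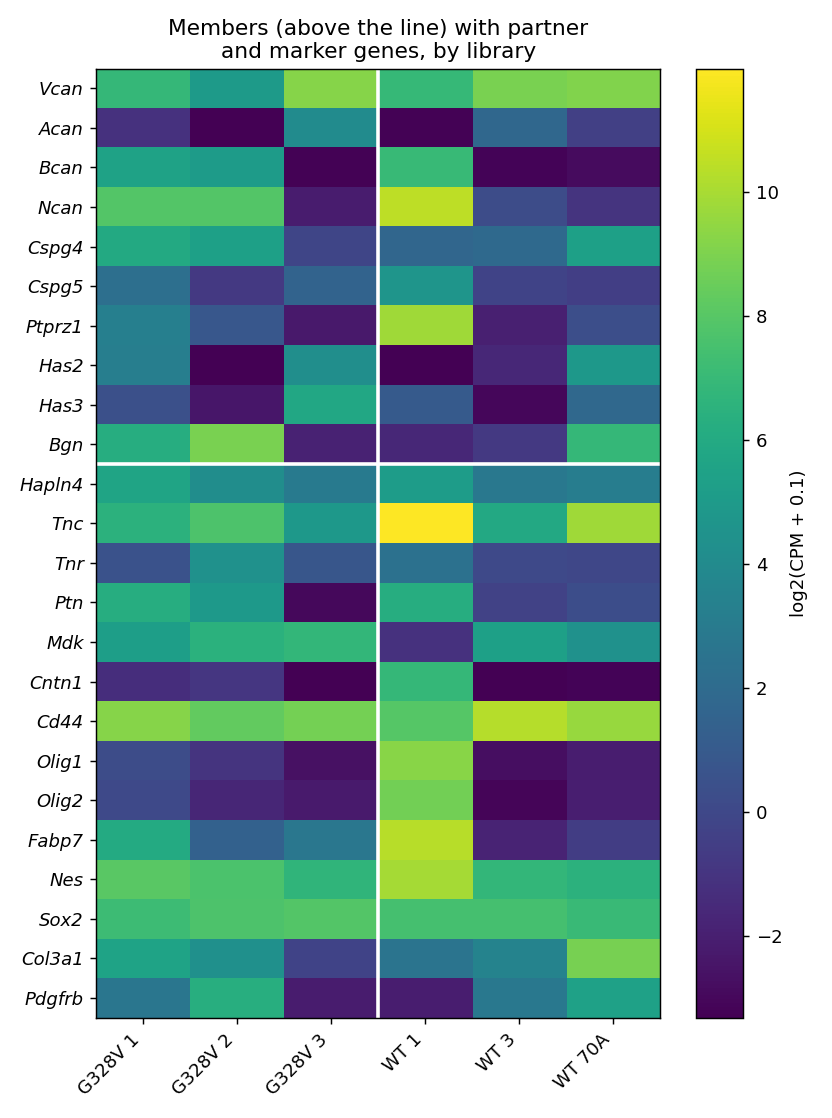
Heat map of log2(CPM + 0.1) for the 10 members (above the white line) and partner and marker genes (below it), with G328V libraries left of the vertical line and WT libraries right of it. WT 1 is bright for Ncan, Ptprz1, Tnc, Olig1, Olig2 and Fabp7, and Sox2 is even over the 6 libraries.

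Markers of neural cell types varied beside the members, and several were highest in WT replicate 1 with Ncan and Ptprz1. The oligodendrocyte precursor list, with 6 of its 7 genes counted, summed to 16.9 to 175 CPM with G328V against 46.3 to 1081 CPM with WT, the highest being WT replicate 1, where Olig1 and Olig2 made up nearly all of the sum. Pdgfra, a receptor of the same precursors, was lowest there at 9.65 CPM, against 12.6 to 158 CPM elsewhere. Sox10 was at 0.0569 CPM there and at 65.2 CPM in G328V replicate 1, with 0 counts in the other G328V libraries. Radial glia and stem markers, all 7 counted, summed to 562 to 757 CPM with G328V against 266 to 2590 CPM with WT, with Fabp7 at 1313 CPM and Nes at 963 CPM in WT replicate 1 and Slc1a3 at 0 counts in G328V replicate 3. Astrocyte markers, all 7 counted, summed to 134 to 381 CPM and to 226 to 423 CPM, and Gfap had 0 counts in WT replicates 3 and 70A and 10.1 CPM in G328V replicate 1. Aldoc lay at 19.2 to 105 CPM and Aqp4 at 4.72 CPM or less. Neuron markers, with 6 of 7 counted, summed to 14.4 to 34.4 CPM and to 6.92 to 57 CPM, with Rbfox3 at 0 counts in 4 libraries, Tubb3 at 1.26 to 44.6 CPM, Syt1 at 2.32 to 22.2 CPM and Stmn2 at 8.3 CPM or less. The part of these cell types in the lectican levels was not tested.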

How the data were processed

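Total RNA of 6 neurosphere samples was sequenced; the labels' protocols name ribosomal depletion, paired ends and both a stranded TruSeq and a Pico kit. The submitters' processing notes name mm10, FastQC 0.11.3, TopHat2 2.0.13 and Bowtie2 2.2.1; no source used here states the counter's settings, its use of strand or its annotation, so genes that overlap others (Has3 with Chtf8, Has2 with Has2os, Vcan with Gm4117) are uncertain. The main values are the authors' deposited HTSeq counts, whole numbers that were not normalized. For 1 alternative, estimated counts of fragments from their deposited Cufflinks table were rounded. With about 2 counts per fragment, counts are not independent molecules, so the 3-count floors are a convention and not upper limits. No libraries were near duplicates (smallest chi-square per degree of freedom 1238).

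Genotype labels gave the groups. Counts were tested with edgeR 4.0.16 in R 4.3.3 (quasi-likelihood F-test, legacy robust fit, TMM, filterByExpr with a minimum count of 10, no covariate), with Benjamini-Hochberg adjustment over 14643 genes. Standard errors came from the F statistic, and SDs of log2 CPM used a prior count of 2. The procedure was tested on simulated data. DESeq2 1.42.0, limma 3.58.1 (voom), other scalings and filters, the Cufflinks table, a replicate block and leaving out each library were alternatives. Exon lengths are from GENCODE M21 (GRCm38, the assembly that mm10 names).

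All 10 members were named, and from 14 further lists (7 of pathway genes, 7 of cell type markers) the up to 3 genes with the smallest edgeR p. Further genes of these lists (Sox2, Hes5, Pdgfrb, Acta2, Col1a1, Col1a2, Has1, Ugdh, Chpf, Chsy1, Chsy3, Hapln1, Hapln4, Ptn, Mdk, Csgalnact1, Sox10, Slc1a3, Rbfox3, Dcn, Lum, Prelp, Adamts4, Cd68 and Pecam1) were named after their values were seen. The members and lists were chosen with earlier results of these data known.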

Additional observations from a re-analysis of the deposited data

How the results depend on the processing

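None of the 10 members was called at an FDR under 0.05 by any of the 15 alternative settings (DESeq2 gave no p to 4 of them), the lowest adjusted p being 0.699 (Bcan without WT replicate 1). Over all genes, DESeq2 called 173, while edgeR called 0 under each of its other settings and limma-voom called 0, with 594 and 590 genes at an unadjusted p under 0.05 in edgeR as reported and in limma-voom. Of 149 member values under the alternatives 132 kept their sign and 17 reversed; Acan had none under the filter of 1 CPM in 3 libraries, which dropped it. With limma-voom Bcan, Ncan and Cspg5 reversed to 2.43, 1.53 and 0.18. Has2, at 0.00, became -0.01 with DESeq2, with RLE factors and with no low-count filter. Without WT replicate 1 Bcan, Ncan, Cspg5, Ptprz1 and Has2 were 10.09, 7.72, 1.97, 2.53 and -0.60; without G328V replicate 3 Acan, Has2 and Has3 were -2.91, -1.02 and -1.42; without WT replicate 3 Has2 was -0.59; and without G328V replicate 2 Bgn was -0.07. Leaving out 1 library at a time, Vcan ranged from -2.37 to -0.13, Acan from -2.91 to 4.02, Bcan from -1.35 to 10.09, Ncan from -2.21 to 7.72, Cspg4 from 0.44 to 3.33, Cspg5 from -2.40 to 1.97, Ptprz1 from -8.35 to 2.53, Has2 from -1.02 to 6.41, Has3 from -1.42 to 4.35 and Bgn from -0.07 to 9.00, and the counts of called genes and members ranged from 0 to 0. The cause was not tested. Total-count scaling moved the median difference of all genes to 0.12. The labels give both groups the numbers 1 and 3 without saying what they share. A replicate block leaves G328V replicate 2 and WT replicate 70A each alone, so neither adds to its group difference. That difference rests on the libraries numbered 1 and 3. WT replicate 70A, left out in this way, held the highest Has2 level, 28.4 CPM. Deviations of same-numbered libraries correlated at 0.181 and 0.226 across genes, and with the replicate block 0 genes were called and 2 members, Ncan at -2.84 and Has2 at 8.31, had an unadjusted edgeR p under 0.05 (adjusted p of 1), while Vcan reversed to 0.11. Unadjusted edgeR p-values under 0.05 also arose without WT replicate 1, for Bcan (0.0316) and Ncan (0.043), there at 10.09 and 7.72. They arose for Vcan (0.0449) without G328V replicate 3 and for Bgn (0.0396) without WT replicate 70A.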

Other observations

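In a list that mixed other chondroitin sulfate proteoglycans with small leucine-rich relatives of biglycan, 8 of 14 genes were tested. Of these, 5 were higher and 3 lower in G328V, with 0 called by edgeR and a median log2 difference of 0.84. These values do not describe chondroitin sulfate proteoglycans alone. Spock1, a testican, lay at 108 CPM in WT replicate 3 and never above 1.47 CPM elsewhere. Spock2, a second testican gene, had groups that did not overlap, at 12.3, 22.5 and 3.89 CPM with G328V against 3.18, 0.00568 and 1.41 CPM, with a log2 difference of 3.07 ± 1.73 (SE). Aspn, a small leucine-rich proteoglycan, had at most 0.344 CPM in G328V and 0 counts in WT. Decorin (Dcn) and lumican (Lum), relatives of biglycan, were at most 0.769 and 1.36 CPM in any library, also in those where Bgn lay at 74.2 CPM or more. Bgn was the one abundant small leucine-rich proteoglycan of the list in G328V replicates 1 and 2 and WT replicate 70A, apart from Prelp at 53.6 CPM in G328V replicate 2.

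The 7 proteases that cut lecticans were all tested, 3 higher and 4 lower, with 0 called and a median log2 difference of -0.27. Adamts4, named after its values were seen, measured 109, 225 and 40.3 CPM with G328V against 124, 88.2 and 90.03 CPM with WT, highest in the 3 libraries with Ncan and Bcan. The lowest of these, at 109 CPM, lay close to WT replicate 70A at 90.03 CPM. This trio was highest for 9.54% of all genes tested. Adamts20, Adamts15 and Adamts5 were each at or near 0 counts in several libraries, with maxima of 11.6, 2.22 and 9.61 CPM. Beside these lists, microglial and leukocyte markers (6 of 7 counted) summed to 20.9 to 63.6 CPM with G328V against 2.19 to 81.2 CPM with WT, nearly all of it Cd68, while Ptprc and P2ry12 were at most 0.506 CPM and Itgam at most 0.261 CPM. Endothelial markers (6 of 7 counted) summed to 36.8 to 97.6 CPM and to 8.26 to 66.6 CPM, with Pecam1 at most 0.972 CPM and Flt1 at 4.83 to 93.1 CPM. Cdh5, the endothelial cadherin, measured 0.344, 1.09 and 0.0163 CPM with G328V against 0.154, 12.1 and 38.7 CPM with WT, with a log2 difference of -5.14 ± 2.16 (SE), and Kdr lay at 0.586 to 17.4 CPM. Prom1, a stem cell surface marker, measured 133, 288 and 190.3 CPM with G328V against 68.8, 10.2 and 7.92 CPM with WT, with a log2 difference of 2.81 ± 0.93 (SE) that edgeR did not call. Of the 7 marker lists, none had a gene called by edgeR, and the median log2 differences were -1.50 for oligodendrocyte precursors, 1.13 for astrocytes, -0.55 for radial glia, 0.77 for neurons, 0.67 for mesenchymal cells, 0.16 for microglia and 0.40 for endothelium. Without WT replicate 1, chosen after seeing the data, the medians turned from -1.50 to 2.44 for oligodendrocyte precursors and from -0.55 to 2.69 for radial glia. The medians also turned from -0.27 to 0.59 for the proteases and from 0.16 to -0.41 for microglia. For the hyaluronan list that included Ugdh the median turned from -0.20 to 0.14. Those of the link proteins and tenascins, of sulfation and of the chondroitin sulfate receptors and Ptprz1 partners were then -0.24, -0.17 and 2.05.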
